A study of Mus musculus with 2 samples.

Results

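The Sonic hedgehog pathway genes described here are 9 genes taken by name: Shh, Ptch1, Smo, Gli1, Gli2, Gli3, Sufu, Boc and Gas1. They are 9 of the 43346 Ensembl genes in the tables, and their 33 annotated transcripts are 33 of 103639. All 9 names were found, each as a single gene. The study measured RNA of whole mouse forebrain at embryonic day 14.5, in mice of strain B6NCrl, with no allele, agent or treatment named in the labels. It has 1 group of 2 biological replicates, each labelled as the forebrain of a single embryo, with a different collection day for each. Both samples carry the same donor label and are marked as male and female pooled, which does not match a single embryo. For each library, 10 ng of RNA over 200 nt in length was used and spike-in RNAs were added. The assay is labelled total RNA-seq, but the general protocol linked in the labels is a Smart-seq one, which primes on poly(A), so whether RNA without poly(A) tails was covered is not settled.

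Hedgehog ligands bind Ptch1, a membrane protein that holds the signal transducer Smo inactive in the absence of ligand. Active Smo, acting in the primary cilium, releases the Gli transcription factors from Sufu and from the kinases that direct their processing into repressors, and target genes such as Gli1 and Ptch1 are transcribed. In the embryonic forebrain the pathway is known for patterning the ventral telencephalon, where it opposes the repressor form of Gli3, and for supporting progenitor division.

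Expected counts summed to 35310017 for replicate 1 and to 29250404 for replicate 2. Levels are given as TPM, in which counts are divided by transcript length and scaled to a fixed sum per library, and each is followed in brackets by the interval that the authors deposited for it. Means carry the standard deviation of the 2 libraries (SD, n = 2 throughout). Since there is a single group, no test between conditions could be made, and the spread between the libraries may be partly technical. The forebrain label was checked against marker lists: 8 of 8 ventral and 7 of 7 dorsal telencephalic genes, 6 of 6 radial glial and 5 of 5 neuronal genes reached 1 TPM in both libraries, against 1 of 6 midbrain and hindbrain genes. That 1 gene was Gbx2, at 17.5 TPM in each library, while En1, En2, Hoxa2 and Hoxb4 had at most 2 counts in a library. Hypothalamic genes reached 1 TPM in both libraries for 2 of 6, and choroid plexus, endothelial and microglial genes for 5 of 5 each. Of all protein-coding genes, 59.6% did. In such whole tissue, fewer cells of a type and less RNA per cell cannot be told apart.

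The 9 genes spanned a 44.6-fold range of level, with the co-receptor Gas1 highest and the ligand Shh and the target gene Gli1 lowest. Gas1, Sufu, Gli3, Boc, Smo, Ptch1 and Gli2 reached 1 TPM in both libraries, which is 7 of 9 against 59.6% of all 21474 protein-coding genes. Shh and Gli1 were under 1 TPM in both libraries, which is 2 of 9 against 38.3%. The median level over the 9 genes came to 7.85 TPM in replicate 1 and 8.53 TPM in replicate 2, beside 3.87 and 4.59 TPM over all protein-coding genes.

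**Figure D1:**
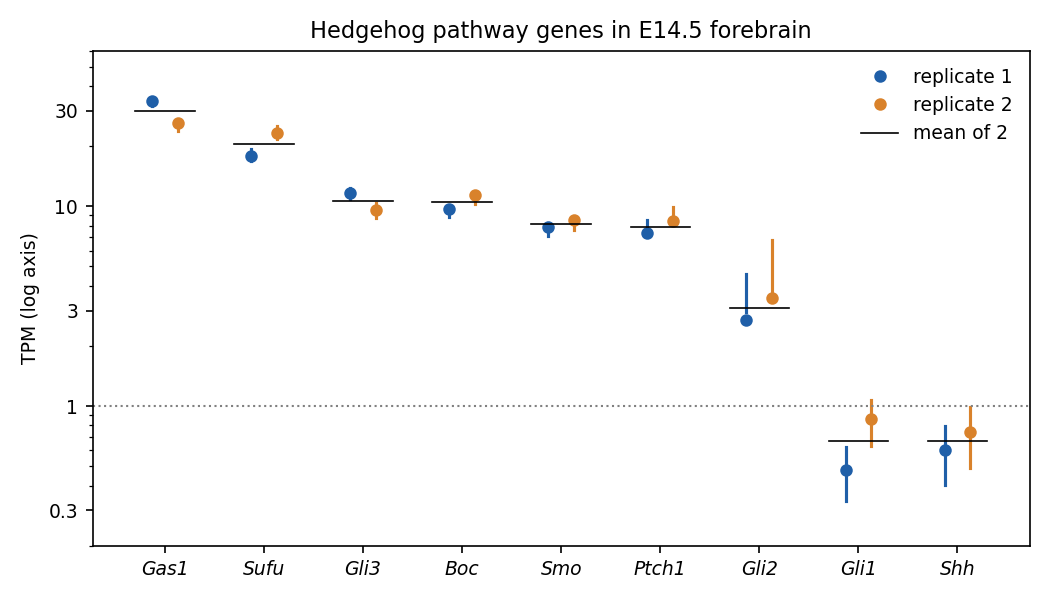
TPM of the 9 genes on a log axis, in order of mean level, with replicate 1 in blue and replicate 2 in orange. Points are TPM, vertical lines are the deposited intervals, short horizontal lines are means of 2 libraries, and the dotted line is 1 TPM. Gas1 averaged 29.9 TPM and Shh and Gli1 0.67 TPM each, and the intervals of Gli2 lie above its points.

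Shh, the secreted ligand (ENSMUSG00000002633.3, chromosome 5, 28456815 to 28467256, minus strand, mm10), had 0.6 TPM [0.402 to 0.79] in replicate 1 and 0.74 TPM [0.488 to 0.987] in replicate 2. The intervals of the libraries overlap, and the mean was 0.67 ± 0.099 TPM. These values rest on 35.4 and 33.8 expected counts, where 3 counts of this gene would be 0.0506 and 0.0657 TPM, so the RNA was measured above the floor but coarsely. Of all protein-coding genes, 36.7% had a lower mean level. A pair of genes on the opposite strand overlap Shh, 9530036O11Rik at 0.03 and 0.02 TPM and Gm26894 at 0.07 and 0.28 TPM in replicates 1 and 2. Whether reads were counted by strand is not stated, and reads from the overlaps could have been shared.

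The other hedgehog ligands had lower TPM. Ihh, the ligand known from cartilage and bone, had 0.17 and 0.07 TPM in replicates 1 and 2, from 9 and 3 counts, with intervals below those of Shh in both libraries. Dhh, the ligand known from testis and peripheral nerve, had 0.27 TPM [0.15 to 0.428] in replicate 1 and 0.35 TPM [0.192 to 0.552] in replicate 2, from 14 counts in each, and was not told apart from Shh, as their intervals overlap. Of the list of other ligands and release factors, 5 of 8 genes reached 1 TPM in both libraries. That is 62.5%, near the 59.6% of all protein-coding genes, and the list median was 3.47 and 3.44 TPM. Disp2, a relative of the releasing protein Disp1, led the list at 17.4 ± 4.2 TPM. Scube1, of the secreted Scube family that helps carry lipid-bearing ligand, averaged 6.88 ± 2 TPM, and Scube3 averaged 4.11 ± 0.0141 TPM. Disp1, which exports lipid-modified ligand, averaged 4.05 ± 0.495 TPM and Hhat, which attaches palmitate to the ligand, 3.01 ± 0.226 TPM. Scube2 was under 1 TPM in both libraries, at 0.32 and 0.75 TPM.

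Ptch1, the receptor that restrains Smo and is itself a target gene (ENSMUSG00000021466.7, chromosome 13, 63508328 to 63573598, minus strand), had 7.38 TPM [7.09 to 8.51] in replicate 1 and 8.42 TPM [8.07 to 9.9] in replicate 2. The intervals overlap, the mean was 7.9 ± 0.735 TPM, and the counts were 1182 and 1032. Receptor RNA thus exceeded ligand RNA: the log2 ratio of Ptch1 over Shh was 3.62 in replicate 1 and 3.51 in replicate 2, or 11.8-fold on average, with the intervals of the genes apart in each library.

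Most Ptch1 RNA was assigned to a transcript that is not the longest coding form. Ptch1-202 held 84.2% and 79.2% of the gene's TPM in replicates 1 and 2, from 981 and 811 counts. From posterior means its shares were 76.7% and 70.4%, and those of Ptch1-201 were 9.57% and 2.23%. By TPM, Ptch1-201, whose start lies 1200 bases upstream of that of Ptch1-202, held 10.3% in replicate 1, from 133 counts. It was listed at 0 in replicate 2, where 3 counts would be 0.0223 TPM. Ptch1-204, annotated as subject to nonsense-mediated decay, a pathway that degrades RNA with an early stop, starts 7725 bases upstream of Ptch1-201. It held 5.15% in replicate 1 and 18.9% in replicate 2, and its TPM of 0.38 [0.123 to 0.798] and 1.59 [0.822 to 2.12] had intervals that lie apart. Those of Ptch1-201, 0.76 TPM [0.27 to 1.19] against 0 TPM with an upper bound of 0.653, overlap.

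The first 60 coding bases of these 3 transcripts (GRCm38, minus strand of chromosome 13) show that each begins its reading frame in a different place, with the start codon in capitals.
Ptch1-202: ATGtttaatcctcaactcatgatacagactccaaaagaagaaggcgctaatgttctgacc
Ptch1-201: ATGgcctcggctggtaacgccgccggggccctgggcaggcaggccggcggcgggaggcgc
Ptch1-204: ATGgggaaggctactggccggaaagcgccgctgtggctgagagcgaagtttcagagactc
The frame of Ptch1-202 opens at position 63548126 in exon 3, that of Ptch1-201 at 63565520 in exon 1 and that of Ptch1-204 at 63573094 in exon 1. The annotated reading frames have 1297 codons in Ptch1-202, 1434 in Ptch1-201 and 581 in Ptch1-204, so that of Ptch1-202 is 137 codons shorter than that of Ptch1-201. Their first exons are 78, 374 and 369 bases long and separate, and their second exon, 63563623 to 63563815, is shared. Ptch1-202 also lacks 419 bases (63511113 to 63511531) that the last exon of Ptch1-201 has beyond its coding part. The tables do not give which of these differences carried the assignment of reads, so the shares do not by themselves locate the start of transcription.

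**Figure D2:**
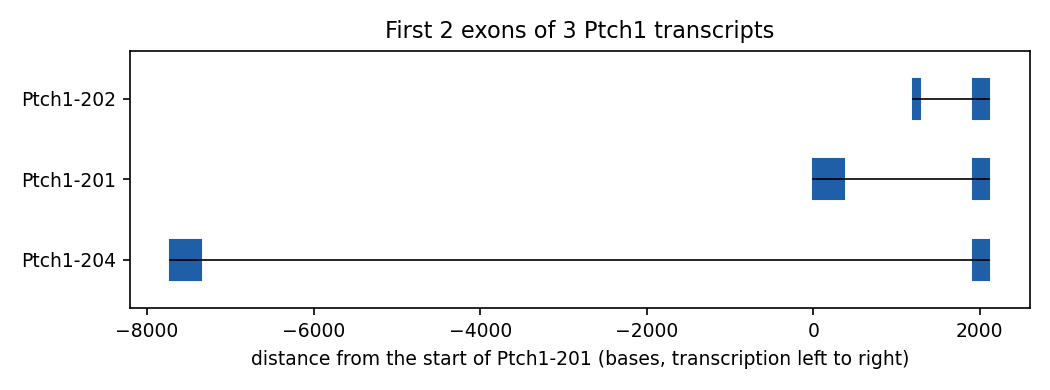
The first exons and the shared second exon of Ptch1-202, Ptch1-201 and Ptch1-204, as boxes on an axis of bases from the start of Ptch1-201, with transcription from left to right and lines for introns. Ptch1-202 starts 1200 bases downstream and Ptch1-204 starts 7725 bases upstream of Ptch1-201.

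Boc and Gas1 are cell-surface co-receptors that bind the ligand together with Ptch1. Gas1, a membrane-anchored protein (ENSMUSG00000052957.7, chromosome 13, 60174405 to 60177365, minus strand), had 33.8 TPM [31.6 to 34.3] in replicate 1 and 26 TPM [23.9 to 26.6] in replicate 2. Replicate 1 is the higher, with intervals that lie apart, and 77.0% of protein-coding genes had a lower mean than its 29.9 ± 5.46 TPM. Boc, a transmembrane protein of the immunoglobulin superfamily (ENSMUSG00000022687.7, chromosome 16, 44485049 to 44558897, minus strand), had 9.66 TPM [8.84 to 10] in replicate 1 and 11.4 TPM [10.3 to 11.8] in replicate 2. Here replicate 2 is the higher, with intervals apart, and the mean was 10.5 ± 1.25 TPM. The log2 ratio of Gas1 over Boc was 1.81 in replicate 1 and 1.19 in replicate 2, 2.82-fold on average and apart in both. Gas1 over Shh was 44.5-fold on average, from log2 ratios of 5.81 and 5.14. Gm48488, on the opposite strand, shares 684 bases with Gas1 and has no level here.

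Cdon, the relative of Boc that serves as a further co-receptor, had 8.18 and 9.07 TPM in replicates 1 and 2. It was not told apart from Boc: the log2 ratio of Cdon over Boc was -0.24 and -0.33, and the intervals of the genes overlap in each library. Lrp2, a large endocytic receptor that takes up Shh, was under 1 TPM in both libraries at 0.54 and 0.62 TPM. Hhip, a decoy that binds the ligand and is a target gene, had 0.89 and 1.16 TPM, and was named after its values were seen. The 4 genes of this receptor list had a median of 1.46 and 2.06 TPM.

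Smo, the signal transducer (ENSMUSG00000001761.6, chromosome 6, 29735503 to 29761365, plus strand), had 7.85 TPM [7.09 to 8.25] in replicate 1 and 8.53 TPM [7.58 to 8.96] in replicate 2. The intervals overlap, and the mean of 8.19 ± 0.481 TPM has the smallest relative spread of the 9 genes. By TPM, Smo stood level with the receptor that restrains it: the log2 ratio of Ptch1 over Smo was -0.09 in replicate 1 and -0.02 in replicate 2, with overlapping intervals in both. By deposited posterior mean TPM the ratio turned to 0.06, and with protein-coding transcripts only it was -0.26. By expected counts not divided by length it was 0.87, and the pair was apart.

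Of the genes that act on Smo or Gli at the cilium, 12 of 12 reached 1 TPM in both libraries, against 59.6% of all protein-coding genes. Their median was 6.25 and 7.3 TPM in replicates 1 and 2. The highest was Efcab7, which anchors the Evc complex at the cilium base, with 20.8 ± 0.184 TPM. Grk2, a kinase that phosphorylates active Smo, averaged 15.6 ± 1.87 TPM. Ift88, a subunit of the transport machinery that builds the cilium, and Iqce, a partner of Efcab7, averaged 13.1 ± 1.05 and 13.1 ± 3.59 TPM. Arl13b, a ciliary GTPase, averaged 10.5 ± 1.04 TPM.

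Sufu, which binds Gli proteins and restrains them (ENSMUSG00000025231.12, chromosome 19, 46396896 to 46488804, plus strand), had 17.8 TPM [16.8 to 19.3] in replicate 1 and 23.2 TPM [21.7 to 25.3] in replicate 2. Replicate 2 is the higher, with intervals apart, and the mean of 20.5 ± 3.87 TPM was second to Gas1. Smo was lower than Sufu, with a log2 ratio of -1.18 in replicate 1 and -1.45 in replicate 2, and so was Gli3, with -0.61 and -1.28. Both pairs were apart in each library. By expected counts not divided by length, the ratio of Gli3 over Sufu was -0.17 and no longer apart; the effective length of Gli3 was 7086 bases in replicate 1 and that of Sufu 4108.

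The enzymes that phosphorylate Gli proteins and direct their processing or degradation had a median of 73.5 TPM in replicate 1 and 95.6 TPM in replicate 2. Of these, 12 of 12 reached 1 TPM in both, against 59.6% of all protein-coding genes. These are kinases and ubiquitin ligase parts with many other substrates. Prkar1a, the regulatory subunit of protein kinase A, averaged 442 ± 35.9 TPM, and Csnk1a1, casein kinase 1 alpha, 233 ± 22.9 TPM. Cul1, the scaffold of the ligase that recognises phosphorylated Gli, averaged 133 ± 3.5 TPM. Gsk3b, a kinase of Gli proteins, averaged 120 ± 17.6 TPM, and Prkacb, a catalytic subunit of protein kinase A, 114 ± 27.5 TPM.

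Of the 3 Gli transcription factors, Gli3, the main repressor, was highest and Gli1, an activator that is itself a target gene, lowest. Gli3 (ENSMUSG00000021318.11, chromosome 13, 15463235 to 15730026, plus strand) had 11.6 TPM [10.9 to 12.3] in replicate 1 and 9.57 TPM [8.76 to 10.4] in replicate 2. Replicate 1 is the higher, with intervals apart, and the mean was 10.6 ± 1.46 TPM. Gli2, the main activator early in the response (ENSMUSG00000048402.10, chromosome 1, 118834132 to 119053619, minus strand), had 2.7 TPM [2.97 to 4.6] in replicate 1 and 3.47 TPM [3.74 to 6.76] in replicate 2. In both libraries the TPM lies below its own interval, which is centred on the posterior mean, and that mean was 4.47 TPM over the libraries against 3.08 ± 0.544 for the TPM. Gli1 (ENSMUSG00000025407.6, chromosome 10, 127329882 to 127341974, minus strand) had 0.48 TPM [0.333 to 0.626] in replicate 1 and 0.86 TPM [0.628 to 1.07] in replicate 2, from 39 and 54 counts. Replicate 2 is the higher, with intervals just apart, and the mean was 0.67 ± 0.269 TPM.

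The order Gli3, Gli2, Gli1 held in each library. The log2 ratio of Gli3 over Gli2 was 2.11 in replicate 1 and 1.46 in replicate 2, 3.45-fold on average. Gli2 over Gli1 was 2.49 and 2.01, 4.76-fold on average. Gli3 over Gli1 was 4.60 and 3.48, 16.4-fold on average, and all 3 pairs were apart in both libraries. The size of the ratios with Gli2 depends on the estimate used. By posterior mean TPM, the mean log2 ratio of Gli3 over Gli2 was 1.26, against 1.79 by TPM. That of Gli2 over Gli1 was 2.79, against 2.25 by TPM. The transcriptional targets Ptch1 and Gli1 also differed from each other, with a log2 ratio of Ptch1 over Gli1 of 3.94 and 3.29. Gli1 shares 62 bases at its end with Arhgap9 on the opposite strand, which had 0.94 and 0.56 TPM in replicates 1 and 2, and Gli3 shares 502 bases with Gm6556 on the opposite strand, at 0.51 and 0.44 TPM. A longer antisense gene across Gli1, Gm47200, was not analysed here.

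Genes known to respond to hedgehog signalling covered a wide range of level. Of the 13, 9 reached 1 TPM in both libraries, which is 69.2% against 59.6% of all protein-coding genes. The list median came to 2.03 and 2.76 TPM in replicates 1 and 2. Mycn and Ccnd1, which drive progenitor division and also respond to other signals, averaged 99.3 ± 18.7 and 52.1 ± 4 TPM. Nr2f2, a nuclear receptor of ventral and caudal telencephalon, averaged 46 ± 5.4 TPM. Nkx2-1, the homeobox gene of the medial ganglionic eminence, averaged 12.6 ± 1.01 TPM, and Olig2, a ventral progenitor and oligodendrocyte lineage factor, 5.04 ± 0.764 TPM. Foxa2, a floor plate factor, was under 1 TPM in both libraries at 0.11 and 0.31 TPM. Foxf1 and Foxl1, targets known in gut mesenchyme, were also under 1 TPM, Foxf1 at 0.43 and 0.59 TPM and Foxl1 at 0.1 TPM in replicate 1 and listed at 0 in replicate 2. Over the 47 other pathway genes, 39 reached 1 TPM in both libraries, which is 83% against 59.6% of all protein-coding genes. Their median was 5.46 and 8.29 TPM.

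**Figure D3:**
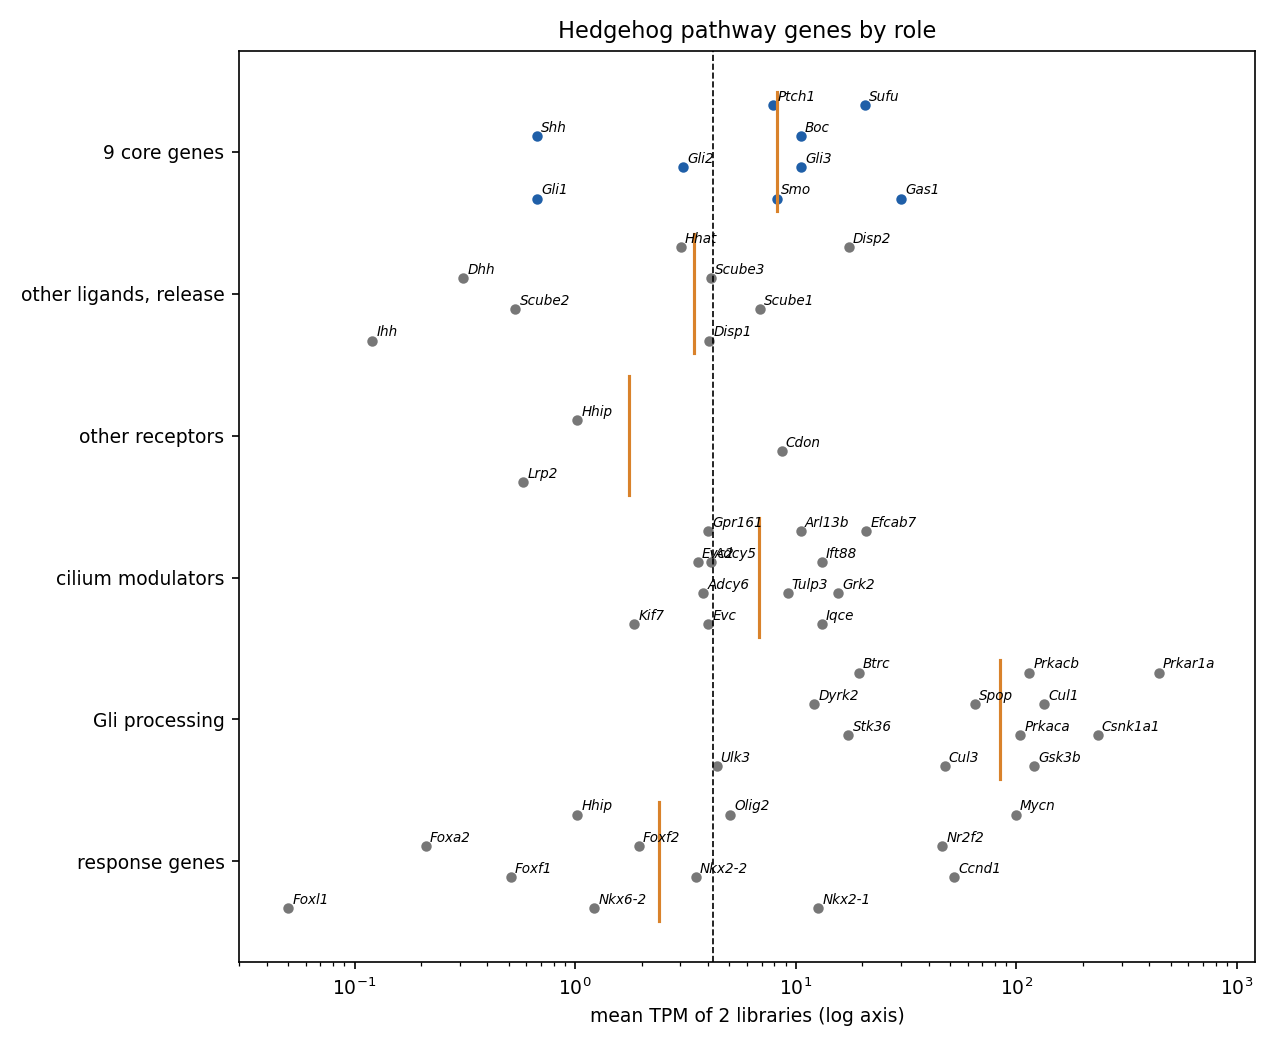
Mean TPM of 2 libraries on a log axis for the 9 core genes in blue and the other pathway genes in grey, by role. Genes not reported here are not drawn. Orange lines are medians over the whole lists, the mean of the medians of the libraries, and the dashed line is that of all protein-coding genes, 4.23 TPM. Hhip stands in 2 lists, and the Gli processing enzymes have the highest median, 84.5 TPM.

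Ordered by mean level, the genes ran Gas1, Sufu, Gli3, Boc, Smo, Ptch1, Gli2, Gli1 and Shh. Of the 8 neighbours in this order, 4 were apart with the same gene higher in each library: Sufu above Gli3, Boc above Smo, Ptch1 above Gli2 and Gli2 above Gli1. Gas1 over Sufu, with a log2 ratio of 0.93 in replicate 1 and 0.16 in replicate 2, and Gli3 over Boc, with 0.27 and -0.26, were apart in replicate 1 only. Gli1 over Shh, with -0.32 and 0.22 and equal means, and Smo over Ptch1, with 0.09 and 0.02, were apart in neither library. When the genes were ordered anew within a library, replicate 2 alone gave 3 neighbours apart, and replicate 1 alone gave 6. Of the 12 pairs compared by ratio, 10 were apart in both libraries.

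Gas1, Smo, Gli1 and Shh have 1 annotated transcript each, and Sufu, Gli3, Boc, Ptch1 and Gli2 have from 2 to 9. In all 5 genes with more than 1, the same transcript led in both libraries, against 89.9% of detected protein-coding genes with 2 or more transcripts. Sufu-201 held 87.7% and 88.7% of Sufu TPM in replicates 1 and 2. Gli3-201 held 83.2% and 81.4% of Gli3 TPM, followed by Gli3-202, whose model is incomplete at its 3′ end, with 11.3% and 12.3%. Gli3-203, which retains an intron, held 5.44% and 6.24%. The leading Boc transcript, with 93.7% and 97%, is not in the annotation used for names, and Boc-201 held 6.32% and 3%. These shares of Sufu, Gli3 and Boc lay within a few percentage points of each other between the libraries, unlike those of Ptch1-201 and Ptch1-204 above.

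The shares of Gli2 also differed between the libraries. Gli2-201 held 100% of Gli2 TPM in replicate 1 and 70.4% in replicate 2, from 404 and 281 counts. From posterior means it held 68.2% and 44.2%, so the share depends strongly on the estimate used. The remainder in replicate 2 was Gli2-206, with 24.5% from 19.7 counts, and Gli2-209, with 5.09% from 2.25 counts, both short models incomplete at their 3′ end. As these models are short, few reads carry a large share of TPM: Gli2-201 alone had 2.7 and 2.44 TPM in replicates 1 and 2, the reverse of the order of the gene's TPM. Of the 33 transcripts, 13 had no counts in either library.

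**Figure D4:**
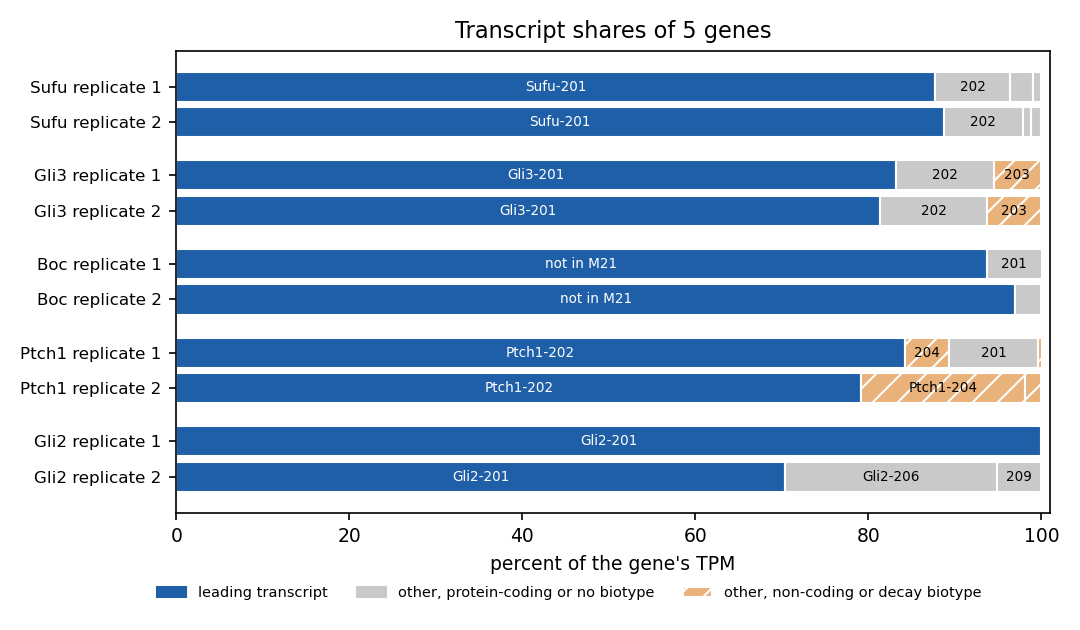
Transcript shares in percent of the TPM of the gene, as stacked bars, with a bar for each library of the 5 genes that have more than 1 transcript. Blue is the leading transcript, grey other coding models or models with no biotype, and hatched orange other non-coding or decay models. Ptch1 non-coding and decay models held 5.56% in replicate 1 and 20.8% in replicate 2, and Gli2-201 held 100% and 70.4%.

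By TPM, the largest differences between the libraries among the 9 genes were those of Gli1, Sufu and Gas1. Their log2 ratios, replicate 1 over replicate 2, were -0.84, -0.39 and 0.37, and none of the 9 reached 2-fold. Relative to the median of detected protein-coding genes, those of Gli1, Gas1 and Gli3 were the largest, at -0.68, 0.53 and 0.44. A gene was called different when its mean was 5 TPM or more, its ratio at least 2-fold and its deposited intervals apart; 6 of the 9 genes met the level, and 0 were called, against 53 of 11010 genes, 0.481%. With so low a share over all genes, the 0 says nothing particular about these 6. Gli2, Gli1 and Shh were under the level. This compares 2 libraries and carries no p-value. Of the 25 other pathway genes at this level, 0 were called, while genes under it, such as Scube2, Foxa2 and Ihh above, had ratios beyond 2-fold on few counts. At any fold, the intervals lay apart for Gas1, Gli3, Sufu and Boc, 4 of the 7 detected genes, against 42.1% of detected protein-coding genes, and for Gli1, which was under the detection level.

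By TPM, Gas1 and Gli3 were higher in replicate 1 and the other 7 genes higher in replicate 2, but detected protein-coding genes had a median log2 ratio, replicate 1 over replicate 2, of -0.16 (5th percentile -0.65, 95th percentile 0.28). Relative to that median, Gas1 stood at 0.53 and Gli3 at 0.44, and 2.9% and 5.0% of detected genes had a ratio above theirs. Gli1, which rests on 39 and 54 counts, stood at -0.68, with 1.8% of detected genes below it. Sufu, Gli2, Shh, Boc, Ptch1 and Smo lay from -0.23 to 0.04. With expected counts and TMM factors the median of detected protein-coding genes was 0.02. Relative to it, Gas1 stood at 0.53, Gli3 at 0.46 and Gli1 at -0.69, and Gli2 turned to 0.20.

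Marker lists of cell types differed to unlike degrees between the libraries, where 9465 of the 12808 detected protein-coding genes were higher in replicate 2. The 5 neuronal markers were all higher in replicate 2, with summed levels of 3140 TPM in replicate 1 and 3740 TPM in replicate 2. So were all 5 microglial markers, with sums of 97.2 and 107 TPM, all 5 floor plate markers and 4 of 5 endothelial ones. By contrast, 3 of 5 choroid plexus and 4 of 6 hypothalamic markers were higher in replicate 1. Of the 6 meningeal markers 5 were higher in replicate 2, with sums of 236 and 325 TPM, and Col1a1, at 17.1 and 35.5 TPM, was chosen after its values were seen. Of the 6 radial glial markers 3 were higher in replicate 1, with sums of 2061 and 2066 TPM. Of the 8 ventral markers 4 were higher in replicate 1, with sums of 288 and 340 TPM, and of the 7 dorsal markers 4, with sums of 611 and 623 TPM. Most of the radial glial sums was Fabp7, at 1264 and 1336 TPM, and most of the dorsal sums Neurod6, at 372 and 396 TPM. None of these lists had a gene at 0, and their part in the differences of Gas1, Gli3, Sufu, Boc and Gli1 was not tested.

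**Figure D5:**
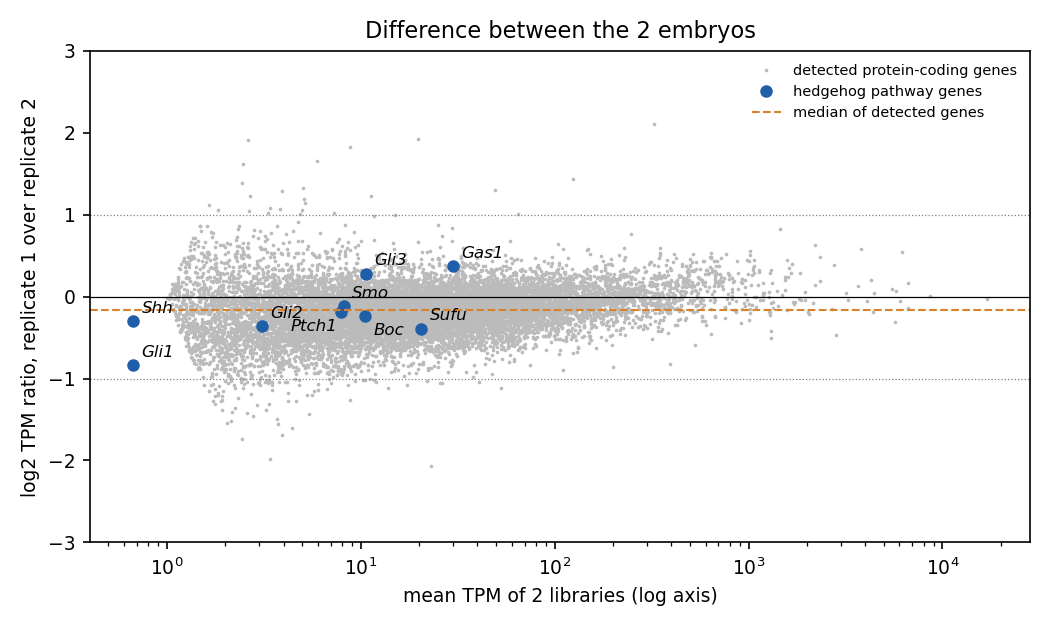
The log2 TPM ratio, replicate 1 over replicate 2, against mean TPM of 2 libraries on a log axis, with detected protein-coding genes in grey and the 9 hedgehog genes in blue. The dashed line is the median of detected genes, -0.16, and dotted lines mark 2-fold. Gas1 and Gli3 lie above 0, Gli1 lies lowest, and none of the 9 passes a dotted line.

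In the genome the 9 genes lie on 7 chromosomes, with Gas1, Ptch1 and Gli3 on chromosome 13, and 6 of them are on the minus strand. RefSeq promoter windows (GRCm38.p6, 250 bases before to 50 after the start) were at hand for 6 of the 9. The window of Ptch1 held 47 CpG dinucleotides, more than 98.6% of 32851 promoters, whose median was 7, and its GC content was 76.3% against a median of 52.7%. Gli3 had 39 CpG, Gli2 28, Smo and Gas1 17 each and Sufu 12, all above the median. The 250 bases before the RefSeq start of Ptch1, which is the first base of Ptch1-201 (chr13:63565736-63565985, minus strand), are shown because that transcript held the small share described above; capitals mark the CpG dinucleotides.
Ptch1 promoter: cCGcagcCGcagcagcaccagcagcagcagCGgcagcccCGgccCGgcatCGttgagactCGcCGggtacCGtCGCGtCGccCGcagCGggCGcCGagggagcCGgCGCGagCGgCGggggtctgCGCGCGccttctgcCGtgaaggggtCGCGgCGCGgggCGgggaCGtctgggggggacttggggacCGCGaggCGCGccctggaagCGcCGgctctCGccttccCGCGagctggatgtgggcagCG
The letters GACCACCCA, the core of the site that Gli proteins bind, were searched on both strands of the windows. They were in 0 of the 6 windows and in 83 of the 32851 promoters, 0.253%, which says only that these letters are not in these 300 bases.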

How the data were processed

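Reads had been assigned by the authors to mm10 with GENCODE release M4, per the notes with the files. The aligner, the quantification program and the strand setting are not given in the sources used here. Per the file headers, the authors gave expected counts per gene, TPM scaled over all rows of a library, and each transcript's percent of its gene's level. Posterior means and an interval of unstated level stood beside each TPM. Summed expected counts were 35310017 and 29250404, and 3 counts at an effective length of 1 kb were 0.131 and 0.17 TPM; these limits cover counting error only.

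Gene names, biotypes and coordinates came from GENCODE M21 on the same assembly, which matched 42462 of 43346 genes (98%) and 101510 of 103639 transcripts. Levels were read as TPM with no pseudocount. Levels of genes were called apart when their deposited intervals did not overlap in either library and the same gene was higher in both, and a gene was detected at 1 TPM in both. Replicate numbers are from the labels, and the samples were never paired with another group.

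The 9 genes, the gene lists and the rules were chosen with earlier results of these data known. Named from each list were up to 5 genes of highest mean TPM that reached 1 TPM in both libraries and those under 1 TPM in both. Some, not all, of the genes that overlap one of the 9 were named too. Some genes of the lists and pairs are not reported here, but counts and medians include them. Alternatives covered posterior means, coding transcripts only (with models that have no biotype), expected counts (as they are, or scaled with TMM of edgeR 4.0.16 or size factors of DESeq2 1.42.0), rescaling over nuclear protein-coding genes, a pseudocount of 1 TPM, other thresholds and leaving out a library. For values without an interval of their own, exact 95% Poisson intervals of expected counts were used. A comparison of leading transcripts only was added after seeing the data. Only the call of a difference between the libraries was tested on simulated data, with Poisson counts and Poisson intervals in place of the deposited ones. Python 3.11.15, pandas 2.3.3, scipy 1.17.1 and R 4.3.3 were used.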

Additional observations from a re-analysis of the deposited data

How the results depend on the processing

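No paired analysis was possible because the study has a single group. Of 115 values of the summary results and pair ratios under the alternatives, 105 kept their direction and call. For counts and levels this meant staying within 1.5 times or the spread between the libraries, and counts among them still moved, as given below. Not all of the 115 could change. With a pseudocount or posterior means the deposited intervals were kept, so whether a pair was apart was fixed. With a library left out, pairs apart in both and genes detected in both could not be lost. The 105 is thus no measure of how firm the results are. Ptch1 over Smo, not apart in either library by TPM, had a log2 ratio of -0.05 that turned to 0.06 by posterior mean TPM. By expected counts not divided by length it came to 0.87 and was apart. By the same counts, Gli3 over Sufu came to -0.17 and was no longer apart. With protein-coding transcripts only, where models without a biotype were kept as coding, Cdon over Boc came to -0.34 and was apart; this rests on the leading Boc model, which has no biotype, as models annotated as coding held 6.31% and 2.97% of Boc TPM. Rescaling TPM over nuclear protein-coding genes gave a median level of 9.94 TPM over the 9 genes, against 8.19 TPM. The genes that differed between the libraries, 53 of 11010 at the level of 5 TPM, became 618 at 1.5-fold and 37 with a pseudocount of 1 TPM. With leading transcripts only, chosen after seeing the data, they were 186, and with no minimum TPM 434. In each, 0 of the 9 were among them. Except with no minimum TPM, only 6 of the 9 met the level and could be called. Gli1, under it, had intervals apart and a TPM ratio, replicate 1 over replicate 2, of 0.558, which is beyond 1.5-fold. The median share of the leading transcript, 85.2%, was 80% from posterior means and 94.9% as a share of expected counts; that of Gli2-201 alone, 85.2%, was 56.2% from posterior means. Leaving out a library gave 3 to 6 neighbours apart, with Boc above Gli3 without replicate 1 and Shh above Gli1 without replicate 2. It gave a median level of 7.85 to 8.53 TPM and a median leading share of 81.4% to 87.7%. Either way 10 pairs were apart and 7 genes detected, numbers that could not have been lower. At a threshold of 5 TPM 6 genes were detected, and at 0.1 TPM all 9. Depth limits Shh and Gli1 most, with 33.8 to 54 expected counts a library.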
